A study of Mus musculus with 4 samples.

Results

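The response of P4htm-/- cortex to permanent middle cerebral artery occlusion (pMCAO) was taken as the difference between ipsilateral and contralateral cortex 24 h after onset, gene by gene. P4H-TM deficient mice lack the transmembrane prolyl 4-hydroxylase encoded by P4htm, and WT mice of the same C57BL/6J strain went through the same left-sided occlusion at 3 months of age, so that no array holds cortex of unoperated mice. RNA from the dissected cortex of 4 mice was pooled for each array, and the 4 arrays hold contralateral and ipsilateral cortex of each genotype, with 1 array for each. Each of 18194 genes was represented by the probe set with the highest mean over the 4 arrays among the probe sets that name 1 gene, and 13264 genes were detected on at least 1 of the 2 P4htm-/- arrays. Detected means above 4.80 on the log2 scale, the 95th percentile of the 80 probe sets of receptors for odours, pheromones and bitter taste, which cortex is not known to use. Genes counted as higher or lower had measured values at least 1.5-fold apart, which is 0.585 on the log2 scale, and a log2 difference of 1 is 2-fold.

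P4htm itself read 8.27 in contralateral and 8.23 in ipsilateral P4htm-/- cortex, against 10.03 and 10.02 in WT cortex, and it is not known here whether its probes lie within the deletion. Markers of the labelled tissue were present on both P4htm-/- arrays, such as the neuronal Rbfox3 at 12.61 and 12.56. The labels do not give the sex of the pooled mice. With 1 array per side there is no replicate check and no p-value, and precision is limited by how few arrays there are. Between the P4htm-/- arrays the difference of the receptor probe sets had an SD of 0.18 in log2 units. For genes with 2 detected probe sets, the SD of the gap between their differences, over root 2, was 0.14. Both probe sets of a gene lie on the same arrays, so scatter common to an array is not in this value. The 2 SDs describe technical scatter, not the variation between mice. In cortical tissue fewer cells of a type and less RNA per cell cannot be told apart, and this holds for every cell type marker below.

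Ischemic cortex is known to lose neurons in the core of the lesion while the tissue around it mounts a response of several cell types. Microglia and astrocytes leave their resting state, the latter with new intermediate filaments and secreted acute-phase proteins. Vessels and glia release chemokines that draw monocytes and neutrophils from the blood, cytokines of the interleukin-6 family act through the transcription factor STAT3, and interferons turn on genes of antiviral defence. Low oxygen stabilizes the hypoxia-inducible factors (HIFs), which raise genes of glycolysis, iron handling and vessel growth, and misfolded proteins release the heat shock factors.

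In P4htm-/- cortex, far more genes were higher than lower on the ischemic side. Over detected members, the gene lists with the highest medians were reactive astrocyte markers, CC chemokines, interferon response genes and phagocyte genes. The place of CC chemokines depended on the detection filter, as their median was 0.83 over detected and 0.295 over all measured members. Over all measured members reactive astrocyte markers, interferon response genes and phagocyte genes had medians of 0.83, 0.51 and 0.52. Ipsilateral cortex held 203 higher genes (1.53% of the 13264 detected) and 22 lower genes (0.166%). At 2-fold 75 genes were higher and 1 was lower, at 4-fold 18 were higher, and at 8-fold 4 were higher by their measured values, namely Ttr, Ccl12, Ptx3 and Lgals3, the last 2 from contralateral values below background. Most genes differed little, as 57.8% of the detected genes lay within 0.1 and 83.1% within 0.2 on the log2 scale, and the median difference was -0.02. Of the 203 higher genes, 42 were not above background in contralateral cortex, and 185 still differed by 1.5-fold when their contralateral value was raised to background. Differences of such genes are given below as "at least". Of the 60 higher genes with another detected probe set, 55 had the same sign on all of them, which was so for 1 of 3 lower genes. The 58 gene lists held 107 of the higher genes and 2 of the lower genes, and lists share members where a gene belongs to both.

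**Figure D1:**
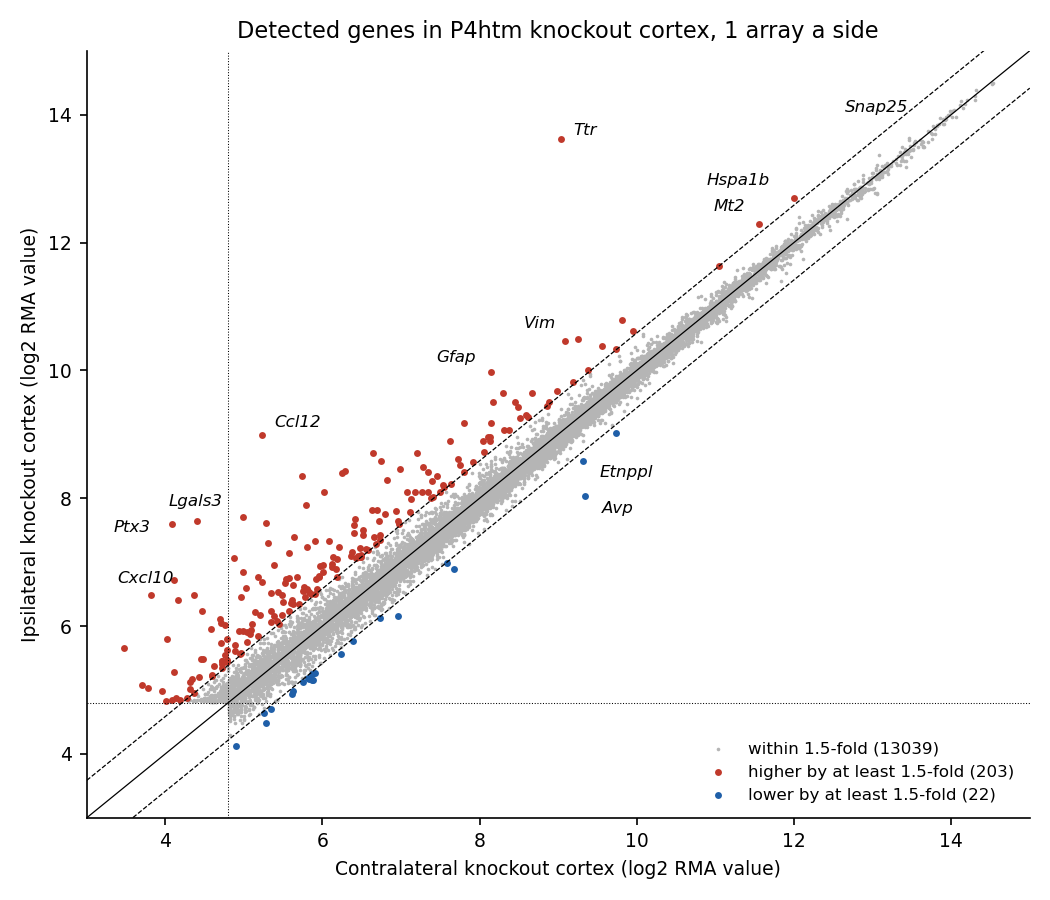
Log2 RMA value of each detected gene in contralateral (horizontal axis) and ipsilateral (vertical axis) P4htm-/- cortex, from 1 array a side. The 203 genes higher by at least 1.5-fold are red, the 22 lower genes are blue, dashed lines mark 1.5-fold and dotted lines the background of 4.80. The red points reach from genes at the background to Ttr, Hspa1b and Mt2 above 12 on the ipsilateral side, while only Avp among the blue points lies beyond 2-fold.

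Markers of reactive astrocytes were higher as a group in ipsilateral P4htm-/- cortex. Of 28 detected markers 19 were higher and 0 were lower, with a median difference of 0.87 against -0.02 for all detected genes. With the undetected markers included the median was 0.83. Gfap, the intermediate filament of astrocytes, read 8.14 in contralateral and 9.97 in ipsilateral cortex, higher by 1.83, and its other 2 probe sets gave 1.65 and 1.82. Vim, the filament protein vimentin, read 9.09 and 10.46, higher by 1.37. Both are classical markers of reactive astrocytes. Serpina3n, a serine protease inhibitor of the acute phase, read 6.25 and 8.39. Osmr, the receptor for oncostatin M, read 6.29 and 8.42. Cd44, the receptor for hyaluronan, read 6.02 and 8.10, with 1.98 for its other probe set. These 3 genes differed by 2.14, 2.13 and 2.08, which is more than 4-fold. Ptx3, a secreted pentraxin that binds microbes and dying cells, read 4.08 and 7.60, higher by at least 2.80. Timp1, the tissue inhibitor of metalloproteinases, read 4.99 and 7.71, higher by 2.72. Lcn2, the iron-binding lipocalin that neutrophils also make, read 4.11 and 6.72, higher by at least 1.92. The markers that did not pass 1.5-fold were the filament gene Synm at 0.04, the stress-induced Fkbp5 at -0.06 and S100a10 at 0.36, among others.

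The listed genes that astrocytes use in healthy cortex stayed within 1.5-fold. Etnppl, an astrocyte gene outside this list, was lower with a difference of -0.72 and is given below. Of 24 detected homeostatic astrocyte genes 0 were higher and 0 were lower, 17 lay below 0, and their median was -0.09. Among all detected genes 1.53% were higher and 0.166% lower, and in the fifth with the highest values 0.34% and 0 genes. Counts of 0 here and in the lists below are near these shares. Slc1a2, the main glutamate transporter, read 13.94 and 13.93. Aldoc, the aldolase of astrocytes, read 13.64 and 13.50. Glul turns glutamate into glutamine. The 3 genes differed by -0.01, -0.14 and -0.17, and the last lies between the SDs of 0.14 and 0.18 given above for technical scatter. Summed on the linear scale and returned to log2, the reactive markers were at 12.70 in contralateral and 13.56 in ipsilateral cortex, and the homeostatic genes at 16.04 and 15.95.

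**Figure D2:**
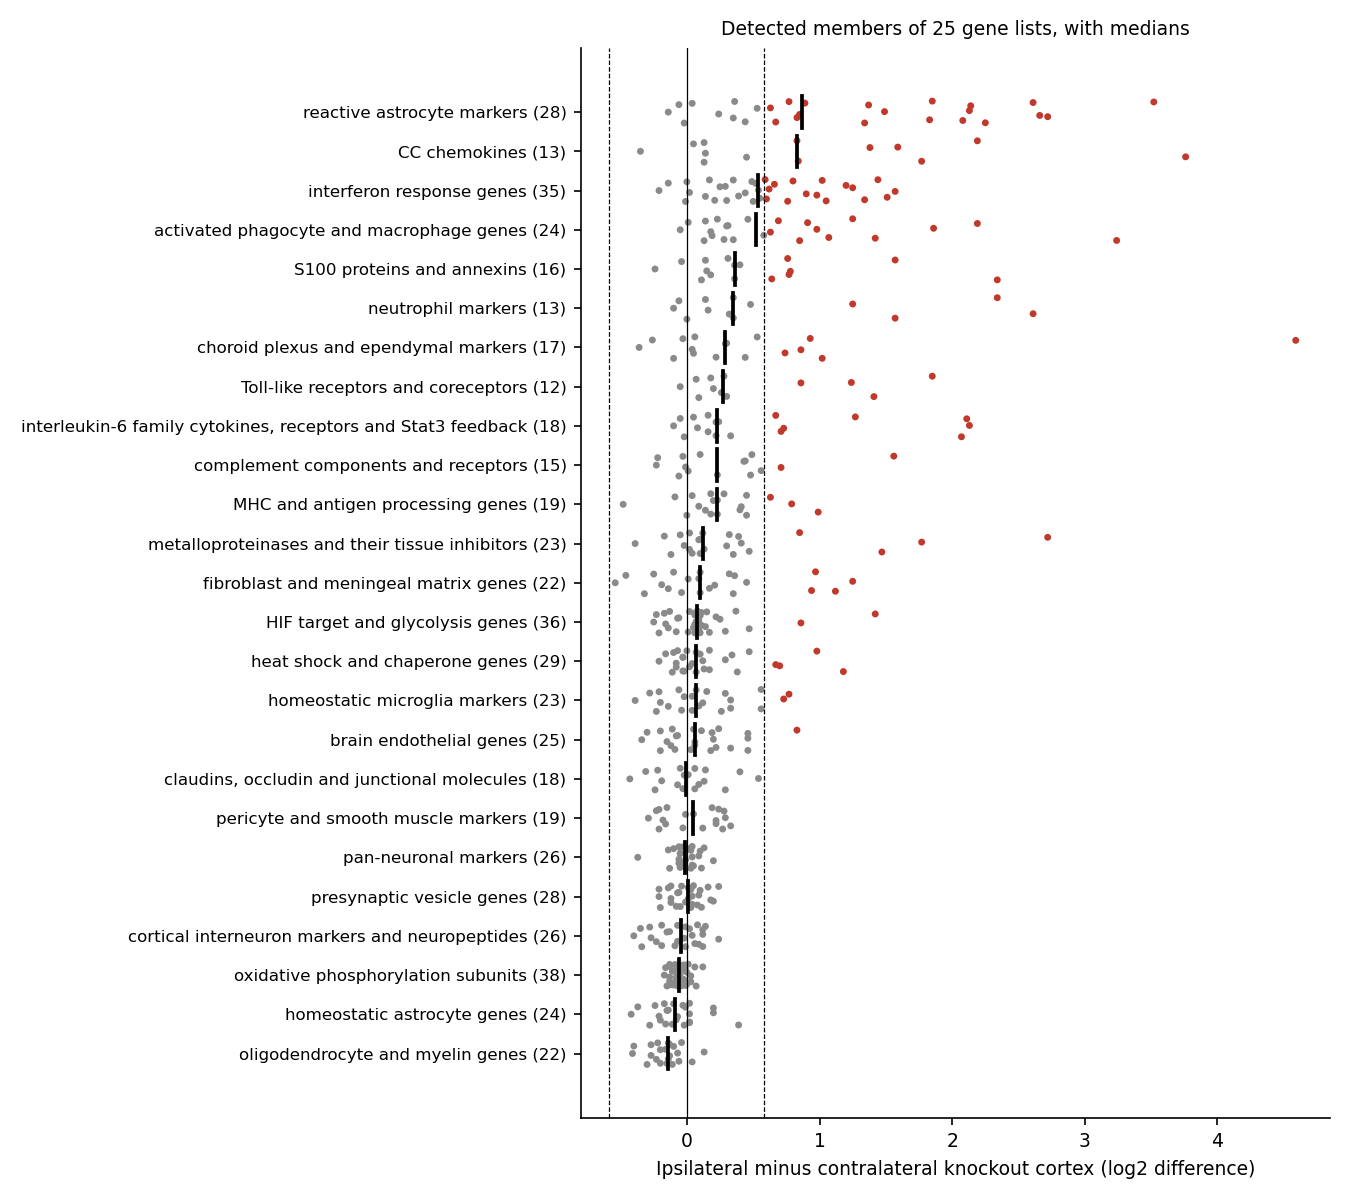
Log2 difference between ipsilateral and contralateral P4htm-/- cortex for the detected members of 25 gene lists, with the number of members in brackets and the median as a black bar. Each point is a gene from 1 array a side, red where it is higher by at least 1.5-fold, and dashed lines mark 1.5-fold. Reactive astrocyte markers and CC chemokines have medians of 0.87 and 0.83, while neuronal, myelin and homeostatic astrocyte genes hold no red point and lie around 0. With undetected members included, the medians of reactive astrocyte markers and CC chemokines are 0.83 and 0.295.

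Chemokines of the CC class, which attract monocytes and lymphocytes, were the other group with a median above 1.5-fold over the detected members. Of 13 detected members 7 were higher and 0 were lower, with a median of 0.83, and 0.295 when the 5 undetected members were included. Ccl12, a monocyte attractant, read 5.23 in contralateral and 8.99 in ipsilateral cortex, higher by 3.76. Ccl9 read 4.87 and 7.06, higher by 2.19. Ccl2, the main ligand of the monocyte receptor CCR2, read 4.58 and 5.96, higher by at least 1.16. All 3 came from values near or below background in contralateral cortex. Ccl3 and Ccl4, made by activated microglia and macrophages, read 4.47 and 6.24, and 5.18 and 6.77, which gives at least 1.44 and 1.59. Ccl27a, a chemokine of epithelia, went the other way with 10.16 and 9.81, a difference of -0.35 that did not pass 1.5-fold. Outside this class Cxcl10, the interferon-induced attractant of T cells, was higher among 9 detected chemokines, with 3.82 and 6.48, or at least 1.68. By the probe sets chosen it was the only one, as Cxcl1, an attractant of neutrophils, differed by 0.35 and Cxcl16 by 0.27. Other probe sets passed 1.5-fold for both, with 0.69 and 1.49 for Cxcl1 and 0.77 for Cxcl16. Cx3cl1, the chemokine of neurons, read 11.39 and 11.30, and Cxcl12 read 8.38 and 8.42. Of the chemokine receptors 8 were detected, 0 were higher, and their median was 0.025, with Cx3cr1, the receptor of microglia, at 9.27 and 9.36. The receptors Ccr1, Ccr2 and Cxcr2 were not detected on either P4htm-/- array.

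Genes of interleukin-6 signalling through STAT3 were higher in part. Of 18 detected members of the interleukin-6 family list 7 were higher and 0 were lower, with a median of 0.23. Socs3, the feedback inhibitor that STAT3 induces, read 6.64 and 8.71, higher by 2.07. Stat3 read 8.59 and 9.30, higher by 0.71, while its other 2 probe sets gave 0.20 and 0.50. Cebpd and Cebpb, transcription factors of the acute phase, read 7.62 and 8.89, and 8.52 and 9.25, which gives 1.27 and 0.73. The ligand Il11 read 4.37 and 6.48, higher by at least 1.68, but Il6 was not above background on either array at 3.67 and 4.77. The shared receptor chain Il6st and the kinase Jak1 differed by 0.16 each. Osmr, given above, and Bcl3, a partner of NF-kappaB that was higher by 0.67, complete the 7.

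Interleukin-1, TNF and their signalling genes differed less. Tnf was not above background at 4.33 and 4.60, and Il1b, the interleukin-1 beta gene, was barely above it at 4.94 and 5.07. Of 13 detected genes of the interleukin-1 axis 2 were higher, Pycard, the inflammasome adaptor, by 0.97 and the receptor Il1r1 by 0.63. Of 17 genes of the TNF superfamily and NF-kappaB feedback 2 were higher, the receptors Tnfrsf12a and Tnfrsf1a, by 0.87 and 0.86. A receptor passed 1.5-fold in both lists, and no detected ligand did. Nfkbia, the inhibitor that NF-kappaB induces, read 11.49 and 11.57. Of 12 Toll-like receptors and coreceptors 4 were higher. Cd14, the coreceptor for bacterial lipopolysaccharide, read 6.74 and 8.59, higher by 1.85. Tlr2 read 4.70 and 6.11, higher by at least 1.31, and Ly86 and Lbp were higher by 1.24 and 0.86, but the other probe set of Lbp differed by -0.05. Myd88, the adaptor of most of these receptors, read 6.39 and 6.65. Of 15 complement genes 2 were higher, the receptor C3ar1 by 1.56 and the integrin chain Itgb2 by 0.71. The recognition molecule C1q did not pass 1.5-fold, with C1qa at 10.08 and 10.57 and C1qb at 9.34 and 9.78. Of 15 prostaglandin and leukotriene genes 0 were higher and 0 were lower, with Ptgds at 14.06 and 13.96. Ptgs2, the inducible cyclooxygenase, read 8.01 and 8.54, just under 1.5-fold, and its other probe set differed by 1.03.

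Interferon response genes were higher in ipsilateral P4htm-/- cortex. Of 35 detected members 16 were higher and 0 lower, with a median of 0.54, and 0.51 with the undetected genes included. Gbp2, a guanylate-binding protein that attacks vacuoles of microbes, read 5.58 and 7.15, higher by 1.57. Iigp1, an immunity-related GTPase, read 5.80 and 7.24, higher by 1.44. Usp18, the protease that removes ISG15, read 4.76 and 6.01, higher by at least 1.21. GTPases induced by interferon gamma and genes induced by type I interferons were both among them. Ifitm1 and Ifitm3, membrane proteins that block viral entry, read 7.20 and 8.71, and 8.30 and 9.64, higher by 1.51 and 1.34. Ifit1, which binds viral RNA, read 5.53 and 6.73, higher by 1.20. Among the transcription factors of this response, Irf9 was higher by 0.59, and Irf7, Irf1 and Stat2 differed by 0.54, 0.21 and 0.25. Ifi27, Xaf1 and Ifit2 did not pass 1.5-fold at 0.14, 0.52 and 0.35. Of 19 genes of MHC and antigen processing 3 were higher. These were the immunoproteasome subunit Psmb8 at 6.52 and 7.51, the class II chain H2-Aa at 6.37 and 7.16, and Erap1, which trims peptides, at 4.59 and 5.22, a difference of at least 0.42 and so past 1.5-fold by its measured values only. B2m, the common chain of class I, read 10.58 and 10.81.

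Since interferon genes were higher together, their promoters were searched for the interferon-stimulated response element, in the letters GAAANNGAA on either strand. The 250 bases before each start site were taken from the RefSeq promoters of GRCm38.p6, where 14 of the 16 higher interferon genes have 17 promoters. The letters were present in 9 of these 17 promoters, or 52.9%, against 7.1% of all 32851 promoters and 5.9% of the promoters of detected genes. In the whole interferon list they were present in 15 of 38 promoters, or 39.5%, and in 13.5% of the promoters of all 203 higher genes that have one. Other sites were as frequent in the promoters of all higher genes. STAT letters, TTCNNNGAA, were in 14.1%, against 7.0% of all promoters and 5.8% of those of detected genes. AP-1 letters, TGANTCA, were in 13.5%, against 6.7% and 4.6%. The 17 interferon promoters held them in 5.9% and 29.4%. Of 7 promoters of higher interleukin-6 family genes 1 held STAT letters. A match is a description of the sequence and not a measured site. Stretches with the match to the interferon-stimulated response element nearest to the start site are shown for 5 of the higher interferon genes. They run 5′ to 3′ on the strand of the gene, with the matched letters in capitals. This lets the shared core be seen in its different surroundings.
Ifit1, chr19:34640765-34640853, plus strand, nearest match 84 bases before the start: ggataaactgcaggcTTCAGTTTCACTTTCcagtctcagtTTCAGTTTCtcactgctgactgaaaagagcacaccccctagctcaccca
Ifit3, chr19:34583387-34583475, plus strand, nearest match 102 bases before the start: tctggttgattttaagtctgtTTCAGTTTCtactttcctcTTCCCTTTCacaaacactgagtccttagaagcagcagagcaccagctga
Gbp2, chr3:142620565-142620653, plus strand, nearest match 58 bases before the start: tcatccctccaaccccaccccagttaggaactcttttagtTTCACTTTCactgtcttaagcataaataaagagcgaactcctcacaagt
Irgm1, chr11:48871421-48871484, minus strand, nearest match 24 bases before the start: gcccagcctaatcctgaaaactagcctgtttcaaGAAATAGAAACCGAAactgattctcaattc
Igtp, chr11:58199482-58199555, plus strand, nearest match 34 bases before the start: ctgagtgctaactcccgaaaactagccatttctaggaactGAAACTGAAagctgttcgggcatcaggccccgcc
Ifit1 and Ifit3 hold 3 matches each in the 250 bases, and in the stretches shown for Ifit1, Ifit3 and Gbp2 the letters lie on the opposite strand. Ifit3 and the guanylate-binding protein Gbp3 were higher by 1.02 and 0.80, the GTPases Irgm1 and Igtp by 0.76 and 0.62. Ifitm1, Ifitm3 and Ifi47 were higher as well, by 1.51, 1.34 and 0.60, and held no such letters in their promoters here.

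Genes of activated phagocytes were higher, and most markers in the list of homeostatic microglia stayed within 1.5-fold. Of 24 detected phagocyte and macrophage genes 11 were higher and 0 were lower, with a median of 0.52, which the undetected genes did not alter. Lgals3, a galectin of activated phagocytes, read 4.41 and 7.65, higher by at least 2.85. Ms4a6d, a membrane protein of macrophages, read 4.99 and 6.85, higher by 1.86. Lyz2, the lysozyme of macrophages and neutrophils, read 7.34 and 8.41, higher by 1.07. Arg1, the arginase of macrophages, read 3.47 and 5.66, higher by at least 0.86. Hmox1, the heme oxygenase that breaks down heme, read 5.91 and 7.33, and Plin2, which coats lipid droplets, 7.18 and 8.09. The lysosomal proteases differed unequally, since Ctsc and Ctsz were higher by 1.37 and 0.63, while Ctsb and Ctsd differed by 0.14 and 0.19. Of 23 homeostatic microglia markers 2 were higher, a larger share than the 1.53% of all detected genes. They were the receptor Fcrls, by 0.77, and the leukocyte phosphatase Ptprc, by 0.73. Tmem119 read 7.44 and 7.48, and Csf1r, the receptor for the survival factor of microglia, 11.58 and 11.62. P2ry12, the ADP receptor of resting microglia, read 8.13 and 7.74, a difference of -0.39. In the same list Aif1, the gene of Iba-1, differed by 0.29, and Cd68 and Itgam by 0.56 each, just under 1.5-fold.

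Neutrophil markers were split. Of 13 detected markers 4 were higher and 0 were lower, with a median of 0.35, and 0.145 with the 9 undetected markers included. S100a8 and S100a9, the subunits of calprotectin, read 5.28 and 7.62, and 5.39 and 6.96, higher by 2.34 and 1.57. Clec4d read 3.78 and 5.03, higher by at least 0.23, and Lcn2 is given above. The granule genes Mpo, Elane, Camp, Ctsg and Mmp8 were not detected on either array. Csf3r, the receptor for the neutrophil growth factor, read 6.06 and 6.20, and Mmp9 read 4.95 and 5.30, a difference of 0.35. Of 18 measured lymphocyte markers 6 were detected and 0 were higher. Ighm, the heavy chain of IgM, read 9.73 and 9.02, lower by a difference of -0.71, but its other 4 probe sets ranged from -0.58 to 0.25, and the one whose name carries no suffix for shared sequence gave 0.06. Cd4 and Cd8a differed by 0.05 and 0.02.

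The S100 proteins and annexins are small calcium-binding and membrane-binding proteins, and 4 of them were higher besides S100a8 and S100a9. Of 16 detected members 6 were higher and 0 were lower, with a median of 0.36, and 0.19 with the undetected members included. S100a4 read 5.80 and 6.58, S100a6 8.31 and 9.07, and Anxa1 6.45 and 7.09. The differences were 0.78, 0.76 and 0.64. Anxa2 read 7.75 and 8.52, higher by 0.77, but its other detected probe set gave 0.38 and the probe set without such a suffix gave -0.14. S100b, the astrocyte member, read 10.49 and 10.25.

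Vessel genes changed in a few members. Of 25 detected endothelial genes 1 was higher, Vwf, the von Willebrand factor that holds platelets, at 7.27 and 8.10, or 0.83. The share over all detected genes was 1.53%, and a list with 1 higher gene, here and below, rests on that gene alone. Selp, the selectin that endothelium exposes to leukocytes, read 4.45 and 5.49, higher by at least 0.69, while Icam1 and Vcam1 differed by 0.29 and 0.17 and Sele was not above background. Leukocyte adhesion thus passed 1.5-fold on P-selectin and on the integrin chain Itgb2, 2 of 18 detected genes. Of 18 detected claudins and junctional molecules 0 were higher and 0 were lower, near the 1.53% and 0.166% of all detected genes. Cldn5, the main claudin of the blood-brain barrier, read 9.58 and 9.64, Ocln, which encodes occludin, 7.06 and 6.84, and Tjp1 9.96 and 10.10. Of 19 markers of pericytes and smooth muscle 0 passed 1.5-fold, with Pdgfrb at 8.70 and 8.82.

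Some proteases and matrix genes were higher as well. Of 23 detected metalloproteinases and inhibitors 4 were higher. Besides Timp1 these were Adamts1, at 6.82 and 8.29, Adamts9, at 5.76 and 6.61, and Mmp3, the stromelysin, at 4.02 and 5.79, which is at least 0.99. Timp2 and Timp3 differed by 0.10 and 0.02. Of 22 genes of fibroblasts and meningeal matrix 4 were higher, with a median of 0.10. Aldh1a2, the retinoic acid enzyme of meninges, read 6.69 and 7.81, and the proteoglycans Dcn and Lum read 8.67 and 9.64, and 6.01 and 6.95. Col3a1, a fibrillar collagen, read 6.08 and 7.33, higher by 1.25, but the probe set without such a suffix gave -0.12. Summed on the linear scale and returned to log2, this list was at 14.48 and 14.46. The part of meningeal tissue in the dissected cortex was not tested.

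Ttr, the thyroid hormone carrier that the choroid plexus secretes, had the largest difference of all detected genes. It read 9.03 in contralateral and 13.62 in ipsilateral P4htm-/- cortex, higher by 4.59, and its other 3 probe sets gave 4.47 to 4.73. In WT cortex it read 8.71 and 14.06. Other genes of the choroid plexus and ependyma were higher too, though less. Of 17 detected markers 5 were higher and 0 were lower, with a median of 0.29. Kl, which encodes klotho, read 4.78 and 5.80, Sostdc1 was higher by 0.93 and Ecrg4 by 0.74, and Lbp, with its divided probe sets, was the remaining gene besides Ttr. Clic6, Kcnj13 and Foxj1 differed by 0.22, 0.30 and 0.04, and Kcne2, Otx2, Aqp1, Slc4a5 and Steap1 were not detected on either array. The summed level of the 17 markers was 10.73 and 13.77 on the log2 scale, and 10.19 and 10.40 without Ttr. The part of choroid plexus tissue in these differences was not tested.

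The peptides of the hypothalamus, which lies below the cortex, differed in both directions. Of 10 detected genes 1 was higher and 1 was lower, beside 1.53% and 0.166% of all detected genes. Of the 10 genes 8 lay below 0, with a median of -0.265, against 0.345 in WT cortex. The summed level was 11.27 in contralateral and 10.82 in ipsilateral P4htm-/- cortex on the log2 scale, and 10.84 and 10.97 in WT cortex. Pmch, which encodes melanin-concentrating hormone, read 5.64 and 7.40, higher by 1.76. Avp, which encodes vasopressin, read 9.34 and 8.03, a difference of -1.31, and this was the only gene lower by 2-fold. Oxt, the oxytocin gene, read 8.51 and 7.96. For Avp and Oxt the contralateral P4htm-/- value was the highest of the 4 arrays, with 7.92 and 7.59 for Avp in WT cortex, and with the mean of both contralateral arrays as reference the difference of Avp was -0.60. Pmch was lowest in contralateral P4htm-/- cortex, as WT cortex read 6.39 and 6.78. Whether tissue from below the cortex was taken along in different amounts was not tested.

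**Figure D3:**
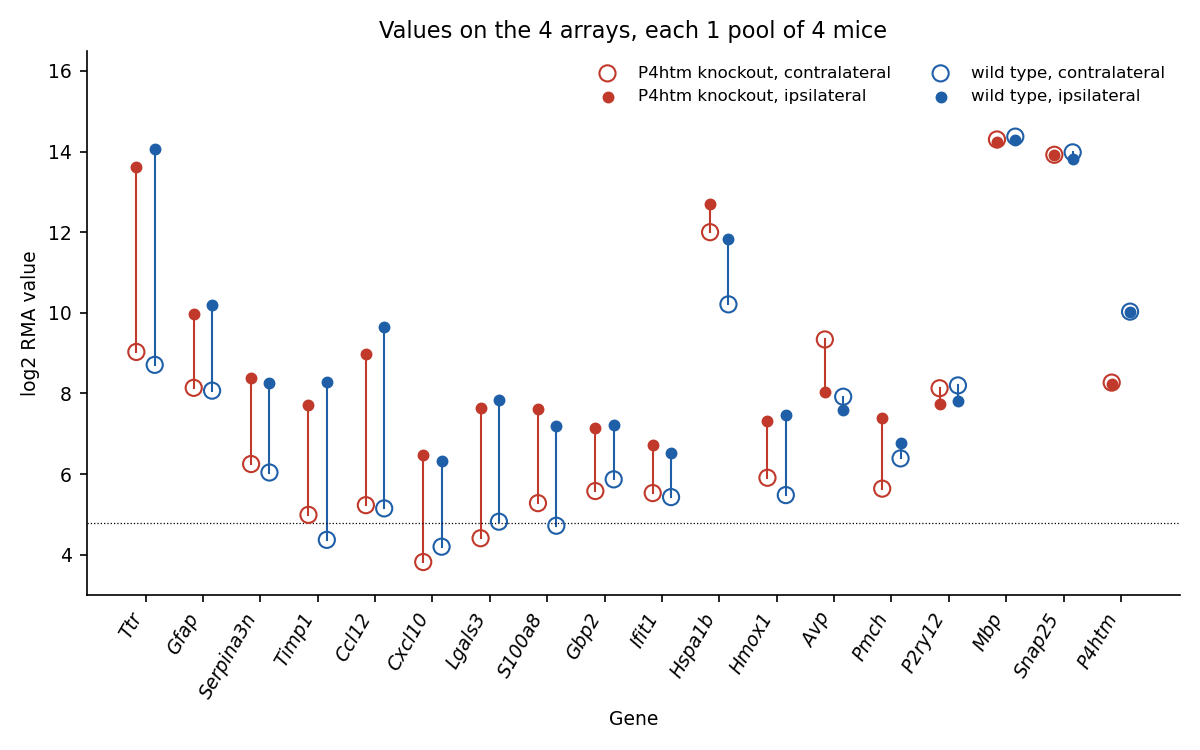
Log2 RMA values of 18 genes on the 4 arrays, each 1 pool of 4 mice, with open circles for contralateral and filled circles for ipsilateral cortex, P4htm-/- (knockout) in red and WT in blue. The dotted line is the background of 4.80. Ttr spans the widest range, from 9.03 to 13.62 in P4htm-/- cortex, Avp and Hspa1b start higher in P4htm-/- than in WT contralateral cortex, and Mbp and Snap25 hardly differ between sides.

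Heat shock genes were higher in 4 of 29 detected members, with a median of 0.07 and 0 lower. Hspb1, the small heat shock protein HSP25, read 9.95 in contralateral and 10.62 in ipsilateral P4htm-/- cortex, higher by 0.67. Hspb6, another small heat shock protein, read 5.57 and 6.75, higher by 1.18. Hspa1a and Hspa1b encode the inducible chaperone HSP70 as near-identical copies, so their probe sets may share transcripts. Hspa1b read 12 and 12.70, higher by 0.70, and Hspa1a read 9.81 and 10.79, higher by 0.98. Both were already high on the contralateral side, where WT cortex read 10.21 for Hspa1b and 8.34 for Hspa1a. With the mean of both contralateral arrays as reference Hspa1b and Hspa1a were higher by 1.59 and 1.72. Constitutive chaperones did not pass 1.5-fold, with Hspa8 at 13.93 and 13.97, Hsp90aa1 at 13.46 and 13.63 and the endoplasmic reticulum chaperone Hspa5 at 12.48 and 12.60. Of 30 genes of the unfolded protein and integrated stress responses 1 was higher, Atf3, a stress-induced transcription factor, at 5.52 and 6.68.

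The letters of a heat shock element, GAANNTTC, which read the same on both strands, were present in 4 of the 5 promoters of these 4 higher genes, in 27.8% of the promoters of the heat shock list and in 6.7% of all promoters. Stretches around the match are shown for 3 of them, since Hspa1a and Hspa1b share the same stretch, 5′ to 3′ on the strand of the gene and with the matches in capitals (GRCm38.p6, RefSeq).
Hspb1, chr5:135887782-135887869, plus strand, nearest match 97 bases before the start: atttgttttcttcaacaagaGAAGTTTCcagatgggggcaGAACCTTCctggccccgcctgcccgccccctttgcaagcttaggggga
Hspb6, chr7:30553141-30553228, plus strand, nearest match 120 bases before the start: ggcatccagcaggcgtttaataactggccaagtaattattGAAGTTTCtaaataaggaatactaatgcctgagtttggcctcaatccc
Hspa1b, chr17:34959295-34959382, minus strand, nearest match 104 bases before the start: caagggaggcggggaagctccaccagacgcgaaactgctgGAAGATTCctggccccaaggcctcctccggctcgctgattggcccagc

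HIF targets mostly stayed within 1.5-fold 24 h after the artery was closed. The median of 36 detected HIF target and glycolysis genes was 0.075, and 0 were lower. Of the 36 genes 2 were higher, a larger share than the 1.53% of all detected genes. The 2 higher genes were Hmox1 and Igfbp3, an insulin-like growth factor binding protein, which read 6.94 and 7.80. Vegfa, the vessel growth factor, read 7.82 and 7.75, Slc2a1, the glucose transporter of the blood-brain barrier, 11.40 and 11.46, and Gapdh 13.41 and 13.46. The hypoxia response element core ACGTG, searched on either strand, was present in 48.1% of the 54 promoters of this list, in 16.6% of all promoters, in 21.0% of the promoters of detected genes and in 15.1% of the promoters of the 203 higher genes that have one. Genes of the oxygen-sensing machinery itself showed 0 of 15 past 1.5-fold. Hif1a read 9.94 and 10.18, Epas1, which encodes HIF2 alpha, 11.64 and 11.60, and Arnt2 11.08 on both arrays. Of 29 genes of oxidative stress, metallothioneins and iron 3 were higher, Hmox1, the copper oxidase Cp by 0.85, with -0.16 to 0.93 for its other 6 probe sets, and the metallothionein Mt2 by 0.73, at 11.56 and 12.29, while Mt1 and the ferritin chain Fth1 differed by 0.29 and 0.03.

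Immediate early genes, which neurons turn on with activity, mostly stayed within 1.5-fold 24 h after onset. Of 37 detected genes 3 were higher, a larger share than the 1.53% of all detected genes. These were Atf3, the synaptic pentraxin Nptx2, at 8.45 and 9.50, and Maff, at 5.93 and 6.58. The other probe set of Nptx2 differed by 0.05. Fos read 10.15 and 10.37, Egr1 13.05 and 13.01, and Arc 9.36 and 9.26. Of 39 genes of MAP kinases, their kinases and phosphatases 0 passed 1.5-fold, with a median of 0.03 and a range from -0.18 to 0.49. The p53 target and cell death list had 1 higher gene of 25, Pmaip1, which encodes the death protein NOXA, at 5.86 and 6.50. Of 22 detected cell cycle genes Mcm3, a helicase subunit of DNA replication, was higher, at 4.97 and 5.58, and Mki67 and Top2a were not detected. Of 23 cholesterol genes Ch25h, the hydroxylase that immune cells use, was higher, at 6.40 and 7.58, while Hmgcs1 and Apoe differed by 0.13 and -0.25.

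Neuronal transcripts were nearly equal on both sides of P4htm-/- cortex. Of 26 pan-neuronal markers 0 were higher and 0 were lower, with a median of -0.015 and a range from -0.37 to 0.20. These counts are near the 1.53% and 0.166% of all detected genes. Snap25, a protein of vesicle fusion, read 13.92 and 13.91, Map2, a dendritic marker, 12.55 and 12.52, and Rbfox3, which encodes the nuclear antigen NeuN, 12.61 and 12.56. Markers of cortical pyramidal neurons and layers had a median of -0.05 and those of interneurons -0.045, again with 0 past 1.5-fold. Presynaptic vesicle genes had a median of 0.01, glutamate receptor subunits -0.06 and GABA receptor subunits -0.03. Slc17a7, the vesicular glutamate transporter, read 8.68 and 8.77, and Gad1, which makes GABA, 12.31 and 12.43. No neuronal list had a member past 1.5-fold, except the hypothalamic peptides and Wfs1, a hippocampal marker that read 9.74 and 10.33. The summed level of the pan-neuronal markers was 16.86 and 16.83 on the log2 scale.

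Myelin genes lay mostly a little below 0. Of 22 oligodendrocyte and myelin genes 20 lay below 0, and 0 passed 1.5-fold, with a median of -0.145. Mbp, the myelin basic protein gene, read 14.30 and 14.23, Cnp 13.02 and 12.86, and Mobp 12.67 and 12.37. Of 15 precursor markers 11 lay below 0, with a median of -0.08. Of 38 subunits of oxidative phosphorylation 30 lay below 0, with a median of -0.06. The ribosomal proteins had a median of -0.03 and the constitutive proteasome subunits one of -0.01. For comparison, 7259 of all 13264 detected genes lay below 0 and 5528 above it. The SDs given above are for single probe sets and do not give the scatter of a median over many genes, so these shifts were not tested. The lowest single difference in the myelin list was -0.41, but it was picked as the lowest of 22 genes and cannot be judged by those SDs.

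The 22 lower genes formed no list of their own. Besides Avp, those with the largest differences were Irs4, an adaptor of insulin signalling, at 6.96 and 6.15, Frzb, a secreted WNT inhibitor, at 7.67 and 6.90, and Etnppl, an astrocyte enzyme of ethanolamine breakdown, at 9.31 and 8.59. Col11a1, a collagen, read 5.87 and 5.16, and Heph, the copper oxidase hephaestin, 5.83 and 5.17. Dapk2, a death-associated kinase, read 5.62 and 4.98. With the mean of both contralateral arrays as reference Irs4 differed by -0.58, within 1.5-fold. The median difference of the 22 genes was -0.67, and 4 of the 22 were not above background in ipsilateral cortex.

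The higher genes lay near each other in the genome more often than detected genes at large. Of the 202 higher genes with a place in the gene order 63, or 31.2%, had another higher gene among the 5 measured genes on either side, against 12.8% of all 13201 detected genes. There were 9 runs of at least 3 such genes. Most were families, and members of a family can share probes. The CC chemokines Ccl3, Ccl4, Ccl5, Ccl6 and Ccl9 with Slfn4 formed 1 run of 6 genes on chromosome 11. S100a4, S100a6, S100a8 and S100a9 lay together on chromosome 3, as did Gbp2, Gbp3 and Gbp7. Ifit1, Ifit3 and Ch25h lay together on chromosome 19, where Ms4a6b, Ms4a6c and Ms4a6d formed another run. Ifitm1, Ifitm2 and Ifitm3 lay on chromosome 7, Irgm1, Ifi47 and Scgb3a1 on chromosome 11, and Hspa1a and Hspa1b with D17H6S56E-5 on chromosome 17. The run on chromosome 6 held 5 genes of different kinds, Usp18, A2m, Apobec1, C3ar1 and Clec4d, of which A2m, the protease inhibitor alpha-2-macroglobulin, read 5.74 and 8.34.

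Set beside WT cortex, which shares no array with it, the P4htm-/- response held the same leading genes with mostly smaller differences. WT cortex held 320 higher genes (2.41% of 13291 detected) and 59 lower genes (0.444%). Of the 203 genes higher in P4htm-/- cortex 157 were higher in WT cortex as well, which is 77.3% of the P4htm-/- genes and 49.1% of the WT genes. The sign was the same in WT cortex for 199 of the 203. Among the 157 the difference was larger in WT cortex for 103 and in P4htm-/- cortex for 52. Of the 22 genes lower in P4htm-/- cortex 3 were lower in WT cortex, which is 13.6% of the P4htm-/- genes and 5.1% of the WT genes. The WT difference was below 0 for 18 of the 22, with a median of -0.33. Timp1 was higher by 2.72 in P4htm-/- and by at least 3.49 in WT cortex, Ccl12 by 3.76 and 4.51, and Gfap by 1.83 and 2.13. The difference between genotypes has no replicates and was not tested for any gene.

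List medians followed the same order with exceptions. The reactive astrocyte median was 0.87 in P4htm-/- and 1.025 in WT cortex, that of interferon response genes 0.54 and 0.585, and that of phagocyte genes 0.52 and 0.71. CC chemokines and neutrophil markers went the other way over the members detected in each genotype, with 0.83 against 0.76 and 0.35 against 0.25, but over all measured members the order turned, with 0.295 against 0.34 and 0.145 against 0.23. Among other exceptions, CXC, CX3C and XC chemokines had 0.27 against 0.19, and 0.28 against 0.23 over all measured members. Hypothalamic peptides had medians of opposite sign, -0.265 against 0.345, and -0.24 against 0.3 over all measured members. Lymphocyte markers had -0.12 against 0.185, but 0.035 against 0.135 over all measured members. The S100 and annexin family differed most among the lists with at least 4 higher genes, with 0.36 against 0.795. Several lists near 0 in P4htm-/- cortex were farther from 0 in WT cortex. Ribosomal proteins had medians of -0.03 and 0.245, proteasome subunits -0.01 and 0.20, potassium and sodium channels -0.03 and -0.24, very long neuronal adhesion genes 0.00 and -0.22, and striatal projection neuron genes -0.005 and -0.215. Pan-neuronal markers had -0.015 and -0.15.

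**Figure D4:**
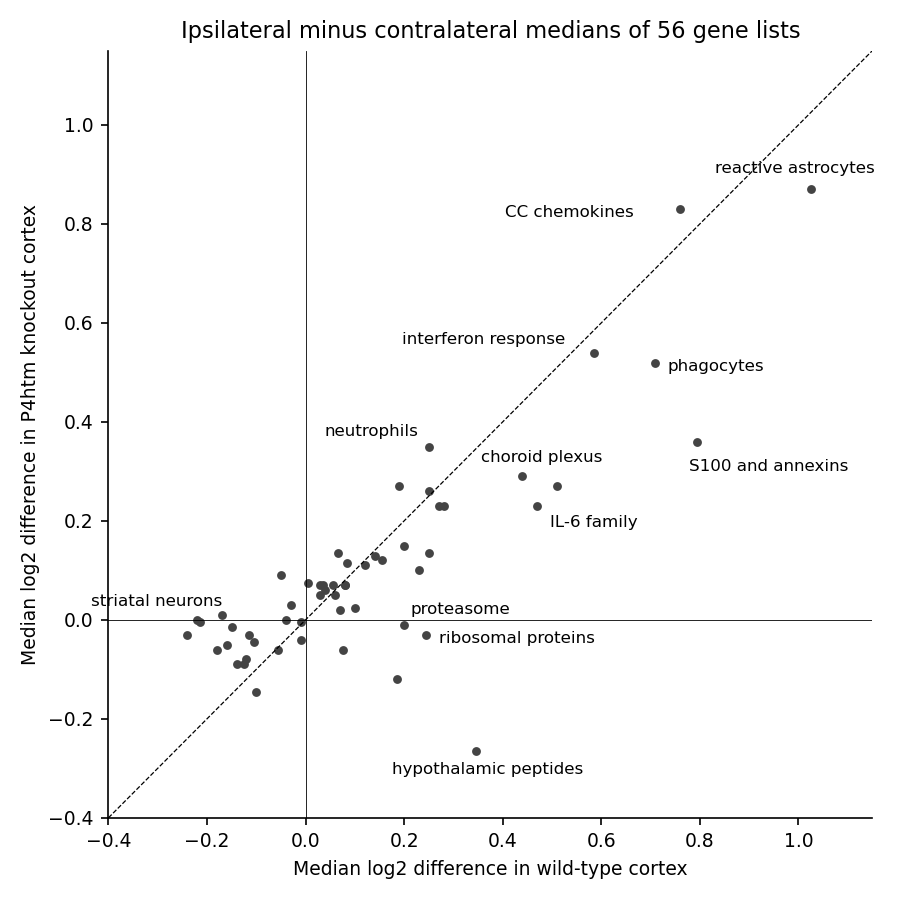
Median log2 difference between ipsilateral and contralateral cortex of 56 gene lists, with WT cortex along the horizontal and P4htm-/- cortex along the vertical axis, each from 1 array a side, with equal medians on the dashed line. Most lists of higher genes lie below the line, such as the S100 and annexin family at 0.795 and 0.36, and ribosomal and proteasome lists lie near 0 on the vertical axis only.

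These lists differ in the genomic span of their genes, and span went with the difference in WT but not in P4htm-/- cortex. Among the genes with spans up to 7.75 kb, the shortest of 5 equal groups, the median difference was -0.03 in P4htm-/- and 0.07 in WT cortex. Among the longest group, above 75.12 kb, it was -0.01 and -0.10. Higher genes in P4htm-/- cortex were still more frequent among short genes, with 2.57% in the shortest and 0.64% in the longest group. They were also more frequent among genes with dim probe sets, with 3.43% in the group of 5 with the lowest and 0.34% in that with the highest mean value. The lowest group starts at 4.39, and a gene with a mean below 4.80 counts as detected only if 1 array lies above it. The ipsilateral array alone brought in 205 genes and the contralateral array alone 121. The share of the lowest group thus cannot be read apart from the detection filter. The control probe sets for the ends of 2 transcripts are a sign of RNA integrity. For Gapdh the 3′ end exceeded the 5′ end by 1.33 in contralateral and 1.16 in ipsilateral P4htm-/- cortex, and by 0.94 and 1.10 in WT cortex. For Actb these values were 1.97 and 1.78, and 1.67 and 1.73. The excess of the 3′ end was thus lower on the ipsilateral side in P4htm-/- and higher in WT cortex, and its part in the differences between genotypes was not tested.

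**Figure D5:**
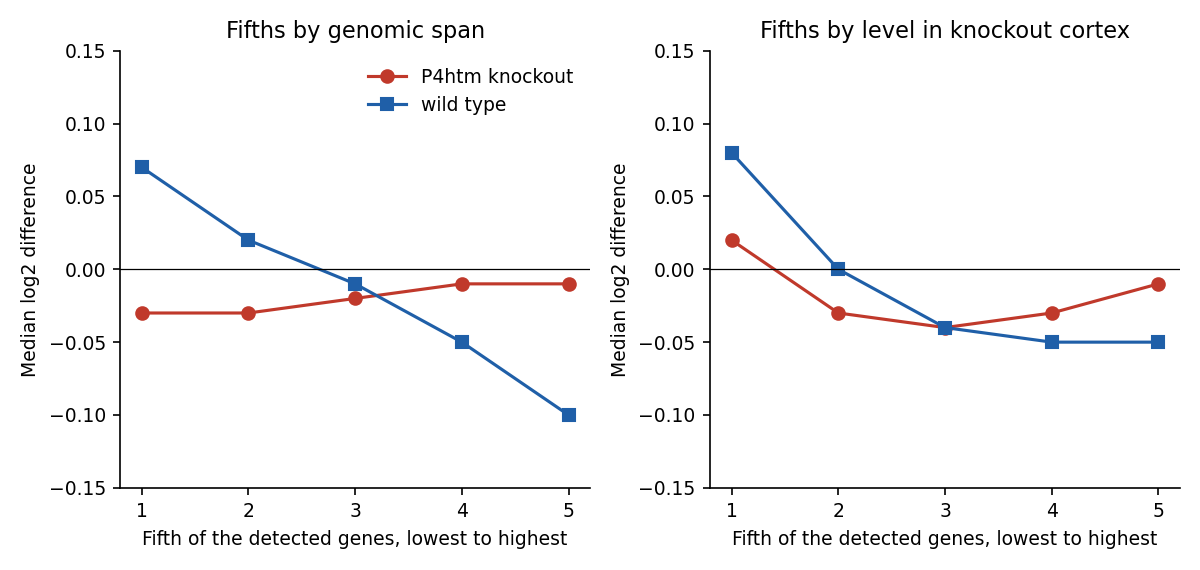
Median log2 difference between ipsilateral and contralateral cortex for 5 equal groups of the detected genes ordered by genomic span (left) and by mean value in P4htm-/- cortex (right), P4htm-/- in red circles and WT in blue squares, 1 array a side. Along span the P4htm-/- medians stay between -0.03 and -0.01, while those of WT go from 0.07 to -0.10.

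Of the genes past 1.5-fold in P4htm-/- cortex, those chosen for the largest distance between both responses are given as values. Ccl4 was higher by 1.59 in P4htm-/- and by 0.93 in WT cortex, Ms4a6c by 1.11 and 0.41, and Pmaip1 by 0.64 and 0.01. For Ccl4 the ipsilateral values were 6.77 and 6.75, and the contralateral ones 5.18 and 5.82. Trim34a, AU020206, Slc31a1 and Pik3cg differed by 0.80, 1.08, 0.65 and at least 0.61 in P4htm-/- cortex and by 0.05, 0.33, -0.07 and -0.10 in WT cortex. In each of these 4 genes the contralateral P4htm-/- value lay below both WT values. In the other direction Tubb6, a tubulin, was higher by 1.99 in P4htm-/- and by 2.85 in WT cortex, but its other probe set differed by 0.08 in P4htm-/- cortex. Ecrg4 was higher by 0.74 and 2.03, S100a4 by 0.78 and 1.66, and Dpm3, a subunit of a mannose enzyme, by 0.73 and 1.62. Hspa1b belongs here as well, with 0.70 and 1.63 and the higher value on both sides in P4htm-/- cortex.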

How the data were processed

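Cortical RNA pools were hybridised to Affymetrix mouse genome arrays. The deposited values are RMA-normalized log2 expression made by the authors in GenePattern, with the log base taken as 2 from their range and the RMA version not given in the sources used here. Of 45101 probe sets 34958 name 1 gene, 932 name several and 9211 none in the platform annotation, and 34754 matched a RefSeq gene by Entrez ID. RefSeq (GRCm38.p6) gave names, spans, gene order and promoters. Differences were subtractions of log2 values, with no further normalization, in Python 3.11.15 with numpy 2.4.6, pandas 2.3.3 and matplotlib 3.10.9. Cyclic loess, an alternative, used limma 3.58.1 in R 4.3.3. Array medians were 5.53 to 5.55, and 58.9% to 59.5% of probe sets were above background on each array. Calculations were tested on simulated data.

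The genes and lists were chosen with earlier results of these data known. Genes were named by a rule: the 15 largest positive and 10 largest negative differences, up to 6 members past 1.5-fold and 3 with the highest values below it in each list, genes fixed by name, and up to 8 genes in each direction whose response differed most from WT. Members of runs, promoter sets and lists outside this rule, such as Arg1, Bcl3, Irf1, Irf7, Irf9, Stat2, Ccl5, Foxj1, Kcnj13, Cxcl1, Cxcl16 and Ptgs2, and the undetected genes were named after their values were seen. Alternatives were the probe set choice, the detection level, the fold, centring, cyclic loess and the reference array.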

Additional observations from a re-analysis of the deposited data

Results flagged for a closer look

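The uncharacterised gene 1110017D15Rik moved in opposite directions, with 5.90 in contralateral and 5.26 in ipsilateral P4htm-/- cortex and 5.50 and 6.12 in WT cortex. The responses were -0.64 and 0.62, a difference of -1.26 on the log2 scale, which has no replicates and was not tested. Probe sets outside the gene-wise comparison also differed between the sides of P4htm-/- cortex. Of 3199 detected probe sets without a gene name 19 were higher by at least 1.5-fold (0.59%), and of 581 detected probe sets that name several genes 16 were higher (2.75%).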

How the results depend on the processing

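With 1 array a side nothing here measures the variation between mice, and dim probe sets limit the differences to bounds. Averaging the probe sets of a gene left 157 higher and 11 lower genes. With background at the 99th percentile of the receptor probe sets 126 were higher and 7 lower, and the medians were 1.21 for CC chemokines and 1.095 for reactive astrocyte markers. At 2-fold 75 were higher and 1 was lower. Preferring probe sets without a suffix for shared sequence gave a reactive astrocyte median of 1.115 and turned the sign of Ighm (0.06), Col3a1 (-0.12) and Anxa2 (-0.14). Without a detection filter 233 genes were higher and 27 lower, and the CC chemokine median was 0.295. With the mean of both contralateral arrays as reference 192 were higher and 29 lower, 171 and 14 of them shared with the counts above, and the CC chemokine median was 0.625. This reference includes WT cortex, so differences between genotypes enter it, and the difference of P4htm itself went from -0.04 to -0.92. Under that reference 13 named genes came within 1.5-fold, among them Irs4 (-0.58), Erap1 (0.43), Il1r1 (0.52), Itgb2 (0.56), Wfs1 (0.49), Pmaip1 (0.56), Mcm3 (0.50), Ctsz (0.53), Trim34a (0.58), Slc31a1 (0.27), Pik3cg (0.43) and 1110017D15Rik (-0.44). Median centring gave 207 and 21, cyclic loess 209 and 21, and raising values to background, an alternative chosen after seeing the data, 185 and 18. The cause of these shifts was not tested. No paired analysis was possible because each group holds 1 array, and for the same reason no replicate could be left out.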

Other observations

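Of the 203 genes higher in ipsilateral P4htm-/- cortex, 96 were in none of the gene lists, and the genes given here were named after their values were seen. Procr, the receptor for protein C, read 4.71 and 6.05, higher by at least 1.25, Cd93, a lectin of endothelium and myeloid cells, read 7.46 and 8.34, and Thbd, which encodes thrombomodulin, read 7.63 and 8.22. The WT differences of these 3 genes were 0.97, 0.85 and 0.60.

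More interferon-induced genes were higher outside the interferon list. Ifi27l2a read 5.23 and 6.69, Gbp6, a guanylate-binding protein, 5.14 and 6.22, and Rtp4 6.72 and 7.65. The ADP-ribosyltransferases Parp9 and Parp14 read 5.39 and 6.15, and 5.18 and 5.85, and the ubiquitin ligase Rnf213 read 6.66 and 7.40. The WT differences were 1.58, 0.59, 0.66, 0.28, 0.42 and 0.32.

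Slc14a1, the urea transporter, read 6.42 and 7.68, and Prg4, the lubricating proteoglycan, 7.28 and 8.49. Gpr84, a fatty acid receptor of activated microglia, read 5.35 and 6.51, and Tspo, the mitochondrial protein used to image activated glia, 6.58 and 7.19.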
